A study of Mus musculus with 18 samples.

Results

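The genes described here are the subunits of the integrins and laminins together with the proteins that join them in the extracellular matrix and at the cell surface: nidogens (Nid1, Nid2), perlecan (Hspg2), agrin (Agrn), dystroglycan (Dag1), fibronectin (Fn1) and tenascins C and R (Tnc, Tnr). They were chosen by their symbols in the array annotation, and the brightest probe over all arrays stood for each gene. This gave 45 genes, of 30869 symbols on the array, measured by 101 of its 45281 probes: 26 integrin subunits, 11 laminin chains and 8 others. RNA was measured on 18 Illumina MouseWG-6 v2 single-colour arrays, 3 for each of 6 conditions. The cells were ESD3, a mouse D3 embryonic stem (ES) cell line of strain 129s2/SvPas. All groups had been infected with a virus that carries an shRNA: against luciferase in the control cells and against HPRT, the purine salvage enzyme, in the knockdown cells. Control and knockdown cells were taken at the ES stage (grown on primary mouse embryo fibroblast feeders, with LIF and bFGF), as spherical neural masses (SNM stage), and after dopaminergic neuronal differentiation (neuronal stage). RNA of replicate cultures was pooled for each condition and the pool was put on 3 arrays, so every SD, standard error and p-value below covers the error of the arrays alone and not that between cultures.

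Laminins are cross-shaped trimers of an alpha, a beta and a gamma chain, and are the core of the basement membrane, the sheet of matrix on which cells sit; nidogens and perlecan link the laminin and collagen IV networks. Integrins are receptors of an alpha and a beta subunit that bind laminins, collagens, or proteins with an RGD sequence such as fibronectin, and couple the matrix to the actin cytoskeleton; dystroglycan is a further laminin receptor, best known in muscle. Laminin made of the alpha1, beta1 and gamma1 chains is the first laminin of the embryo, the alpha2 chain is typical of muscle and peripheral nerve, and tenascin-R is a matrix protein of the central nervous system.

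Hprt1, the targeted gene, had log2 signals of 12.04, 12.07 and 12.00 on the control ES arrays and 8.14, 7.96 and 7.75 on the knockdown ES arrays. In SNM cells its mean was 11.20 in control and 9.44 in knockdown cells, and neuronal-stage cells had means of 11.05 and 6.60. It thus differed by -4.09, -1.76 and -4.45 on the log2 scale in the knockdown cells at the 3 stages, and the labels of all 18 arrays matched it. Signals here are background-corrected and quantile-normalized values on the log2 scale. They compare conditions for 1 probe and give no order between genes. Between 18827 and 22202 probes were detected per array, and within conditions the 3 arrays of a typical (median) probe spread with an SD between 0.0979 and 0.12. Neuron markers rose from a summed signal of 1893 to 1911 in control ES cells to 10923 to 11775 in control neuronal cells. Of these markers, 2 were detected on all arrays of no condition: Snap25, detected on no array, and Th. Th encodes tyrosine hydroxylase, a marker of dopaminergic neurons, and could not be tested between knockdown and control cells at any stage. The neuronal-stage cultures also held strong signals of other cell types, given below beside the genes that moved with them.

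Of the 45 genes, 36 were detected throughout 1 or more conditions, meaning that each of the 3 arrays had a detection p-value under 0.05, and 18 of them on all 18 arrays. The other 9 never reached this level: Itga2, Itga4, Itgad, Itgam, Itgax, Itgb2, Itgb3, Lama4 and Lamb3. Itgam, Itgax, Itgad and Itgb2 encode subunits of the integrins of myeloid cells. Cx3cr1, Emr1, Tyrobp and C1qa, 4 of the 8 microglia and macrophage markers on the array, were detected on no array. In each condition 1 or 2 of the 8 were detected on all 3 arrays. Csf1r and Cd68 could be tested between knockdown and control cells at all 3 stages, and 0 were called. The number of the 45 genes detected on all arrays of a condition was 24 in control and 23 in knockdown ES cells, 27 and 31 in SNM cells, and 30 and 29 in neuronal-stage cells.

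**Figure D1:**
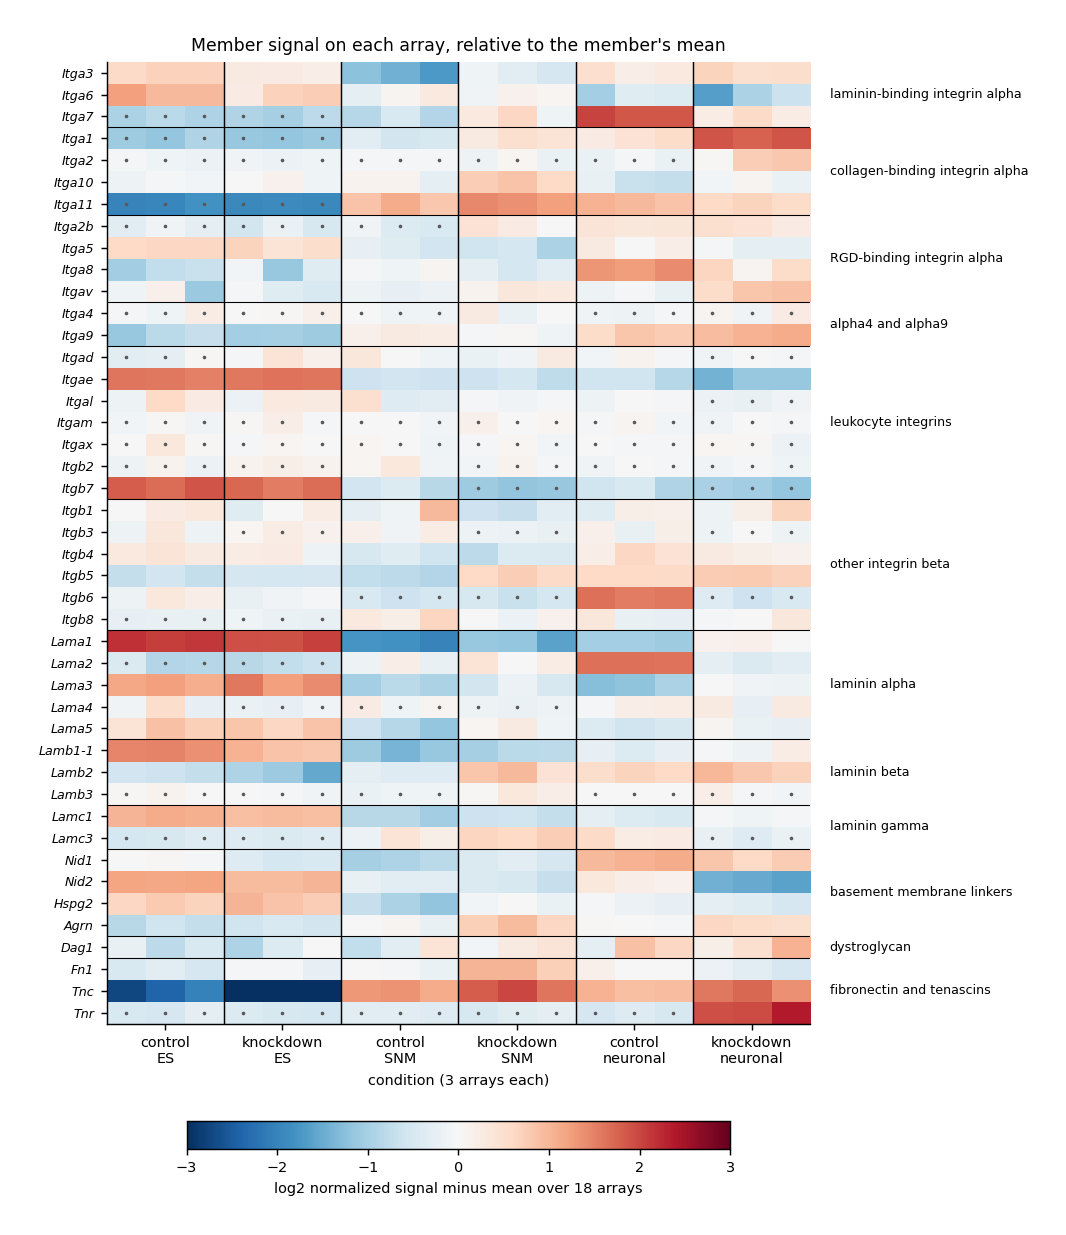
Log2 normalized signal of 44 of the 45 genes (rows, by role) on the 18 arrays (columns, 3 per condition), minus the gene's mean over all arrays; red is above and blue below that mean. Dots mark conditions in which the gene was detected on none of the 3 arrays; Tnr stands out on the 3 knockdown neuronal arrays alone, while Lama2 and Itgb6 are highest on the 3 control neuronal arrays.

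Stretches of promoter are shown for genes that moved together in the results below: Hspg2, Lama5 and Itgb5, higher in knockdown cells at the SNM stage, and Lama2 and Itga8, lower, and Tnr, higher in knockdown cells at the neuronal stage. These 6 were taken among the genes with a single start in the table used, after their values were seen. Each is the 250 bases before the start that the RefSeq-based promoter table lists (build GRCm38.p6), written 5′ to 3′ on the gene's strand. That start need not be the outer end of the annotated gene: of the 250 bases, 249 lay inside the annotated gene for Lama2, 52 for Hspg2, 45 for Lama5, 41 for Itga8, 40 for Tnr and 0 for Itgb5. Capitals mark matches, on either strand, to the GC box spelled GGGCGG, the TATA box spelled TATAAA, the box named CCAAT after its letters, or the E-box spelled CAGCTG, and no matches overlapped.
Hspg2, chr4:137468553-137468802, plus strand: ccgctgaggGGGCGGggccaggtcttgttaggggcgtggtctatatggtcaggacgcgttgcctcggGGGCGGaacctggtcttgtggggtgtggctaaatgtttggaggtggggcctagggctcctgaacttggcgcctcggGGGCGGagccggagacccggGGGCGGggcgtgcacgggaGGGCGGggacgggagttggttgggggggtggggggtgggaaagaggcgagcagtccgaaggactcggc
Lama5, chr2:180225860-180226109, minus strand: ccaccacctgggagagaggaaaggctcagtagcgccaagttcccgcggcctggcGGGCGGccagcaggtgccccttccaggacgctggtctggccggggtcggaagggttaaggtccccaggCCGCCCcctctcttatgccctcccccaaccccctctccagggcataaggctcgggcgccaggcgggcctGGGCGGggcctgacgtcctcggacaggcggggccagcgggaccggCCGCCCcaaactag
Itgb5, chr16:33829415-33829664, plus strand: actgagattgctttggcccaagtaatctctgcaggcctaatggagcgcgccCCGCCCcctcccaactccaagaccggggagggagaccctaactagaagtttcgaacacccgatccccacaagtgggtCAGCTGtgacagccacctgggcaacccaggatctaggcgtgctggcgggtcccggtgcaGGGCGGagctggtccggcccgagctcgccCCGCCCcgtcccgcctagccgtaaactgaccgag
Lama2, chr10:27616943-27617192, minus strand: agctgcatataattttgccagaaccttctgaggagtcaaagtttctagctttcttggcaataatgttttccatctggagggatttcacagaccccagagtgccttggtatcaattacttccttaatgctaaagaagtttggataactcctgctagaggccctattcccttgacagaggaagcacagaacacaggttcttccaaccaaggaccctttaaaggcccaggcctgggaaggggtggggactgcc
Itga8, chr2:12301945-12302194, minus strand: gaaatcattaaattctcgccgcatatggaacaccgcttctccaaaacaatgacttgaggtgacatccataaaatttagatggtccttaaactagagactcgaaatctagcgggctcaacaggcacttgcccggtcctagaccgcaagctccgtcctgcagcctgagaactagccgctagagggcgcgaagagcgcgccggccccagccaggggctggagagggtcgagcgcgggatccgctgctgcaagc
Tnr, chr1:159523519-159523768, plus strand: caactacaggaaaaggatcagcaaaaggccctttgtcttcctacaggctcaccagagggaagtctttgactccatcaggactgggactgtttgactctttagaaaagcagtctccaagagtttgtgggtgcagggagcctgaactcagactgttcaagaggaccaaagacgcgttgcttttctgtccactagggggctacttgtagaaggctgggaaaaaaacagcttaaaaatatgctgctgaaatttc

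The first 3 stretches held 5, 4 and 3 GC boxes and were 70%, 72.4% and 65.2% G or C, and that of Itgb5 also held 1 E-box. The last 3 held none of the motifs and were 47.2%, 56.4% and 46.8% G or C. Windows were at hand for 29 of the 45 genes. A GC box was in 13 of these 29 (44.8%) and in 35.4% of all 27025 genes with a window. It was in 5 of 8 such genes that were higher and in the 1 that was lower in knockdown cells at the SNM stage, and in 1 of 4 that were higher and 0 of 3 that were lower at the neuronal stage. The TATA box was in 1 of the 29 genes (Tnc) and in 14.3% of all genes, the CCAAT box in 6 of 29 and 37.5%, and the E-box in 6 of 29 and 14.7%. These are matches of letters and say nothing of a factor's binding.

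At the ES stage, few of these genes were called between control and knockdown cells. Of 25 tested, 2 were called lower in knockdown cells and 0 higher, where called means at least 1.5-fold with an adjusted p-value under 0.05 in limma; among all 18411 probes tested, 1.17% were called lower and 0.516% higher. At an unadjusted p-value under 0.05 in limma, 9 were lower and 3 higher. The share of all probes at that p-value is not given here, so these 2 counts have no background to be read against. A t-test with Benjamini-Hochberg adjustment called 0 in either direction. The median log2 change of the 25 was -0.16, against 0.01 among all probes. Tnc was 1 of these 2, with log2 signals of 5.33, 5.66 and 6.03 on the control arrays and 4.77, 4.93 and 4.97 on the knockdown arrays, a log2 change of -0.78 ± 0.14 (SE; adjusted p = 0.00257). All its knockdown arrays lay below all control arrays, which adds little to a call by this same difference. Tnc was detected on 2 of the 3 knockdown arrays. A second Tnc probe was also called lower (-0.62, adjusted p = 0.0156). Without background correction neither of the 2 genes was called. The 9 fibroblast and mesenchyme markers summed to 757 to 843 on the control and 633 to 676 on the knockdown ES arrays. Of 5 tested, 0 were called, and 4 were lower and 0 higher at an unadjusted p-value under 0.05 in limma. The 7 pluripotency markers summed to 27470 to 27862 and 25701 to 29016, with 0 of 7 called. The part of the fibroblast feeders in the genes lower at this stage was not tested.

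**Figure D2:**
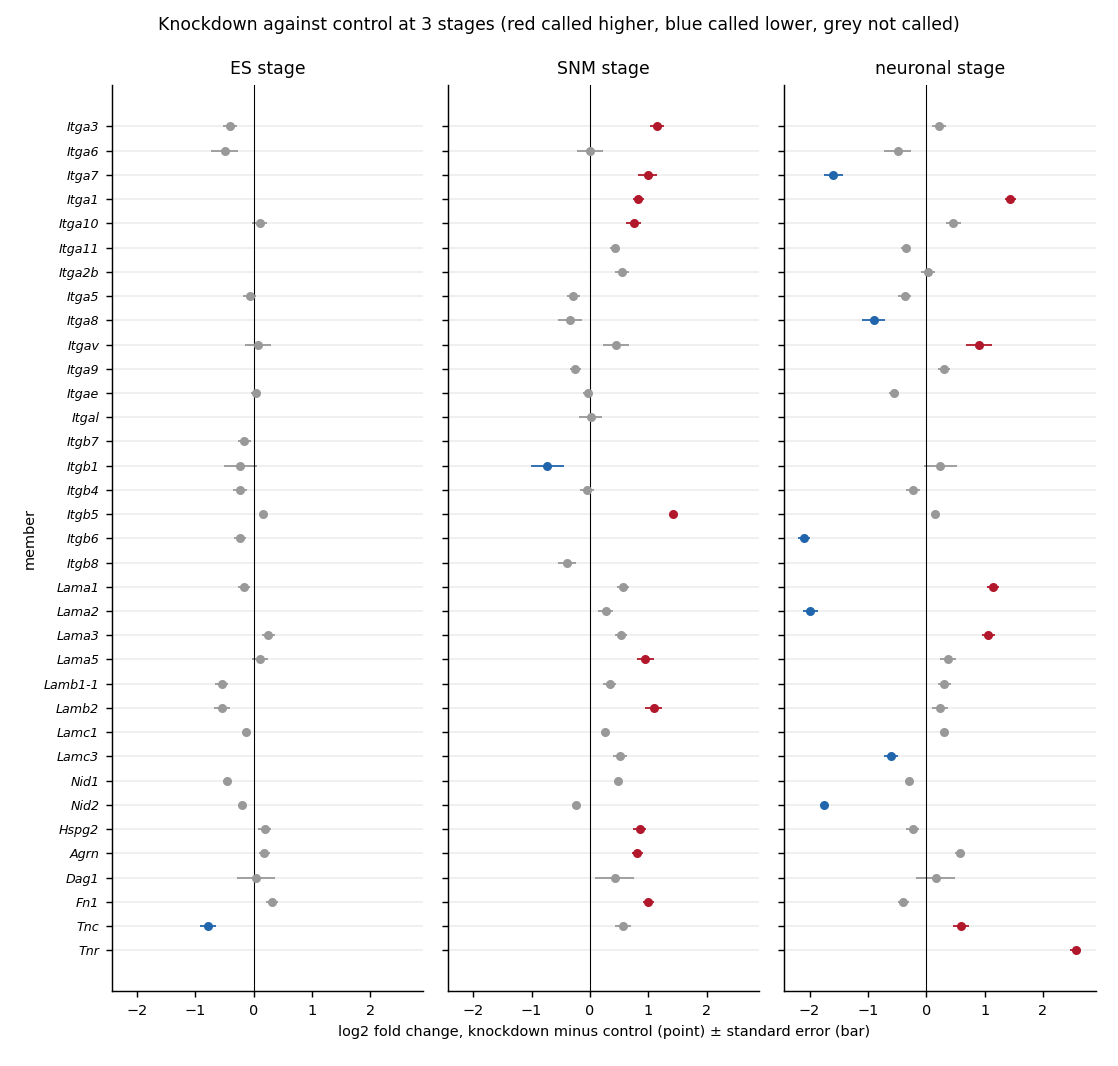
Log2 fold change of knockdown against control cells (horizontal axis; point with standard error of the limma fit) for genes tested at 1 or more of the ES, SNM and neuronal stages. Genes called higher are red, genes called lower blue; the panels show 1, 11 and 12 called genes.

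From the ES to the SNM stage the chains of the early embryonic laminin fell in both cell types. Lama1 fell from 11.77, 11.67 and 11.72 to 7.81, 7.78 and 7.59 on the control arrays, and from 11.52, 11.51 and 11.64 to 8.45, 8.42 and 7.99 on the knockdown arrays. Its log2 changes were -3.99 ± 0.10 in control cells (15.9-fold; adjusted p = 3.7e-15) and -3.27 ± 0.10 in knockdown cells (9.65-fold; adjusted p = 2.79e-14). The beta1 chain, listed as Lamb1-1 on the array and now named Lamb1, went from a mean of 9.94 to 7.29 in control cells (-2.64 ± 0.11) and from 9.39 to 7.63 in knockdown cells (-1.76 ± 0.11). The gamma1 chain Lamc1 went from 11.67 to 9.70 (-1.97 ± 0.07) and from 11.52 to 9.96 (-1.57 ± 0.07). No ES array of these 3 chains came near any SNM array. The epithelial chain Lama3 also fell in both, by 2.09 and 1.81 on the log2 scale. Lama5, Nid2, Hspg2 and the fibronectin receptor subunit Itga5 fell in both as well, with log2 changes between -1.63 and -0.71.

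The pair that forms the integrin of intraepithelial lymphocytes, Itgae and Itgb7, was clearly detected at the ES stage. Itgae had 7.70, 7.67 and 7.62 in control and 7.69, 7.72 and 7.70 in knockdown ES cells, and 5.48, 5.52 and 5.47 and 5.47, 5.56 and 5.33 in the corresponding SNM cells. It fell by 2.17 ± 0.08 and 2.25 ± 0.08 on the log2 scale. Itgb7 had 7.24, 7.09 and 7.30 and 7.13, 6.95 and 7.09 at the ES stage and means of 4.80 and 4.30 at the SNM stage, where it was detected on 1 and 0 of 3 arrays. Its fall was -2.41 ± 0.11 in control cells and at least 5.19-fold in knockdown cells. Control and knockdown ES cells overlapped for both genes, with log2 changes of 0.04 for Itgae and -0.16 for Itgb7.

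Tnc and Itga11 rose most. Tnc, a matrix glycoprotein of the neural stem cell niche and of developing mesenchyme, reached 9.36, 9.41 and 9.18 on the control and 9.88, 10.07 and 9.67 on the knockdown SNM arrays, 12.5-fold (3.64 ± 0.14, adjusted p = 1.11e-12) and 31.7-fold (4.99 ± 0.14, adjusted p = 1.49e-14) above the ES stage. The collagen receptor subunit Itga11 was detected on no ES array. It reached 7.18, 7.42 and 7.13 on the control and 7.76, 7.69 and 7.54 on the knockdown SNM arrays, at least 5.18-fold and 6.63-fold higher. Itga9, a receptor subunit for tenascin-C, rose by 1.08 and 0.99 on the log2 scale, and agrin by 0.66 and 1.29. Itga1, Itga7, Lama2 and Lamc3 were likewise detected on no ES array.

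In all, 8 genes were called higher and 16 lower of 31 tested in control cells between these stages, and 13 higher and 12 lower of 33 tested in knockdown cells. All probes tested were called higher in 23.7% and lower in 25.4% in control cells, and in 26.4% and 30.9% in knockdown cells. The same 6 genes were called higher in both cell types and the same 12 lower, with 0 called in opposite directions. The median changes were -0.65 and 0.04 on the log2 scale, against -0.08 and -0.11 over all probes tested. With uncorrected signals scaled by the 75th percentile, the counts were 2 higher and 14 lower, and 6 and 10. Extraembryonic endoderm makes much laminin, and its 8 markers on the array summed to 5281 to 5429 in control ES, 4065 to 4246 in knockdown ES, 1301 to 1385 in control SNM and 1917 to 2086 in knockdown SNM cells, with Afp detected on no array. The 7 pluripotency markers summed to 25701 to 29016 on the ES arrays and to 2987 to 4817 on the SNM arrays. The part of either group of cells in the fall of the laminin chains was not tested, and in bulk RNA fewer cells of a type and less RNA per cell cannot be told apart.

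**Figure D3:**
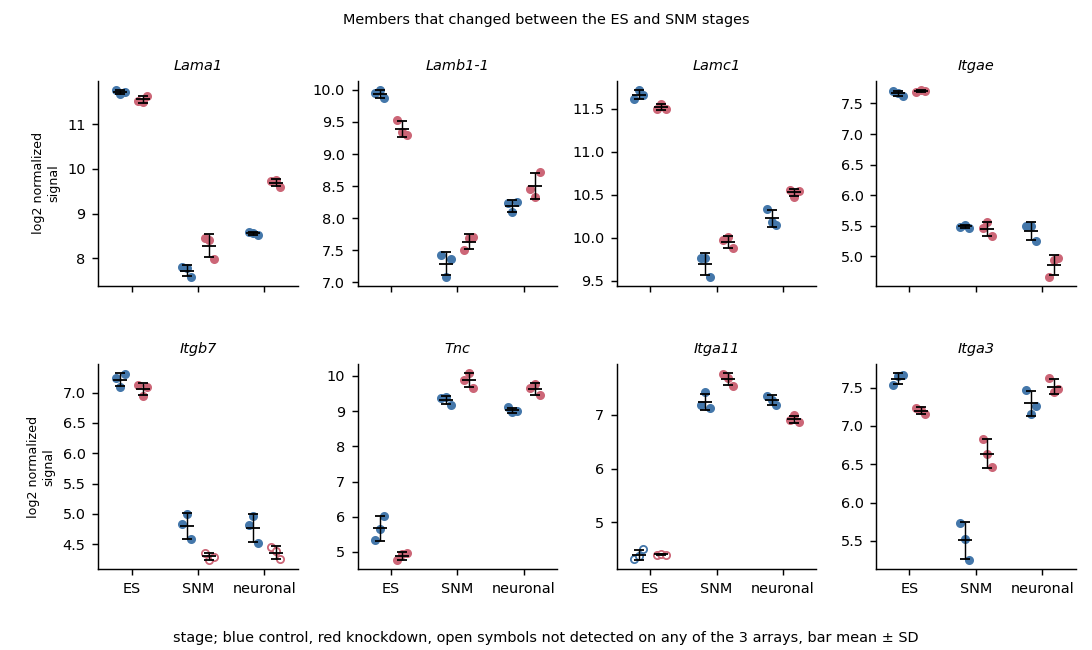
Log2 normalized signal (vertical axis) of 8 genes on each array by stage (horizontal axis) in control (blue) and knockdown cells (red); bars are means ± SD over 3 arrays and open symbols mark conditions with no array detected. Lama1, Lamb1-1, Lamc1, Itgae and Itgb7 fell after the ES stage, Tnc and Itga11 rose, and Itga3 fell to a mean of 5.50 in control SNM cells but to 6.64 in knockdown SNM cells.

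At the SNM stage, more of these genes were called higher than lower in knockdown cells. Of 32 genes tested, 10 were called higher and 1 lower, against 10.97% and 8.90% of all 20765 probes tested. The 32 had a median log2 change of 0.46, and all probes one of -0.04. The 10 were the integrin subunits Itga1, Itga3, Itga7, Itga10 and Itgb5, the laminin chains Lama5 and Lamb2, and Hspg2, Agrn and Fn1. They made up 5 of 17 integrin subunits tested, 2 of 8 laminin chains and 3 of 7 other genes. In each, the 3 knockdown arrays lay above the 3 control arrays, which adds little, as the 10 were called by this same difference.

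Among the laminin-binding alpha subunits, Itga3 had 5.74, 5.53 and 5.25 on the control and 6.83, 6.63 and 6.46 on the knockdown arrays (1.14 ± 0.12, adjusted p = 6.15e-07). Itga7, the main alpha subunit of skeletal muscle, had 4.48, 4.88 and 4.46 against 5.62, 5.95 and 5.21 (0.99 ± 0.16, adjusted p = 6.64e-05), and was detected on 1 of the 3 control arrays. Itga6, the alpha subunit that also pairs with Itgb4, had overlapping arrays, with means of 6.90 in both. The collagen receptor subunits Itga1 and Itga10 were 1.78-fold and 1.68-fold higher, Itga1 at 5.22, 4.99 and 5.04 against 5.79, 6.01 and 5.94. Itgb5, which pairs with Itgav to bind vitronectin, showed the largest difference of the 45 genes at this stage: 8.87, 8.84 and 8.74 on the control arrays and 10.22, 10.35 and 10.18 on the knockdown arrays (1.43 ± 0.06, adjusted p = 2.18e-11).

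Of the ligands, Lamb2 had 7.19, 7.08 and 7.07 against 8.29, 8.43 and 7.90 (1.09 ± 0.14, adjusted p = 9.23e-06) and Lama5 5.43, 5.20 and 4.88 against 6.12, 6.31 and 5.92 (0.95 ± 0.14, adjusted p = 4.45e-05). Both chains are typical of mature basement membranes. Agrin, which binds laminin and dystroglycan, had 11.51, 11.59 and 11.29 against 12.23, 12.47 and 12.13 (0.81 ± 0.09). Perlecan had 8.74, 8.48 and 8.26 against 9.35, 9.43 and 9.24 (0.85 ± 0.11). A second Hspg2 probe was also called higher (0.95), while the third was not called and had a change of -0.16. Fibronectin had 9.09, 9.02 and 8.87 against 10.10, 10.10 and 9.79 (1.00 ± 0.10). Of its other probes, 1 was called higher (0.83) and the other two tested had changes of 0.06 and 0.23.

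The gene called lower was Itgb1, the beta subunit shared by most laminin and collagen receptors, with 6.37, 6.54 and 7.64 on the control and 6.06, 5.98 and 6.33 on the knockdown arrays (-0.73 ± 0.28, adjusted p = 0.0391). This call rested on control array 3: without it the change was -0.33 (adjusted p = 0.24), and without knockdown array 1 or 2 the call was also lost. A second Itgb1 probe, detected on all arrays, had a change of -0.24 (adjusted p = 0.194). Without background correction, 6 in place of 10 genes were called higher under either normalization, Itga1, Itga7, Itga10 and Lama5 losing the call.

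Markers of other cell types moved in the same comparison. The 11 skeletal muscle markers summed to 1448 to 1482 on the control and 2742 to 3035 on the knockdown SNM arrays, with 8 of 10 tested called higher. The 7 epithelial markers summed to 973 to 1134 and 3330 to 3589 (5 of 6 called higher), and the 7 astrocyte and radial glia markers to 6633 to 7577 and 11727 to 12270 (3 of 7). The 10 oligodendrocyte markers summed to 12090 to 12790 and 9809 to 10742, with 5 of 9 called lower. The 8 extraembryonic endoderm markers summed to 1301 to 1385 and 1917 to 2086, with 4 of 6 called higher and 1 lower. Of the fibroblast and mesenchyme markers 3 of 9 were called higher, and of the pluripotency markers 4 of 6 were called lower. The part of these cells in the changes of Itga7, Lama5 and the other 8 genes was not tested.

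Between the SNM and neuronal stages, Itga7 and Lama2, both known from muscle, rose in control cells and were not called higher in knockdown cells. Itga7 rose to 7.37, 7.20 and 7.21 on the control neuronal arrays (2.66 ± 0.16, 6.3-fold, adjusted p = 5.26e-10) and Lama2 from 5.12, 5.48 and 5.05 to 6.93, 6.93 and 6.91 (1.70 ± 0.13, adjusted p = 8.9e-09). Itgb6, the epithelial subunit that pairs with Itgav and activates TGF-beta, was detected on no SNM array and reached 6.72, 6.60 and 6.64, at least 3.71-fold higher. Nid1 rose by 1.95 ± 0.07, Itga3 by 1.79 ± 0.12, Itgb5 by 1.39 ± 0.06 and Itga8 by 1.37 ± 0.20 on the log2 scale. In knockdown cells Itga7 stayed at 5.55, 5.92 and 5.55 and Itgb6 was detected on no array, while Itgb5 went from a mean of 10.25 to 10.36 and had thus already been, at the SNM stage, at the level of the control neuronal cells (10.21).

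In knockdown cells Tnr, Itga1 and Lama1 rose most, and the latter 2 also rose in control cells (0.86 ± 0.09 and 0.83 ± 0.10). Tnr was at least 4.54-fold higher at the neuronal than at the SNM stage, Itga1 2.75-fold (1.46 ± 0.09, adjusted p = 5.23e-10) and Lama1 2.65-fold (1.41 ± 0.10, adjusted p = 4.41e-09). Fn1 fell by 1.25 ± 0.10, Nid2 by 0.99 ± 0.07 and Lamc3 at least 1.64-fold. The counts were 14 higher and 1 lower of 31 tested in control cells (all probes tested: 14.3% and 15.1%), and 10 higher and 7 lower of 32 in knockdown cells (13.8% and 14.8%). The gene called lower in control cells was Itga6 (-0.62 ± 0.23), which was not called by the t-test. The same 7 genes rose in both cell types (Itga1, Itga3, Itga8, Itgb4, Lama1, Lamb1-1 and Nid1), and 6 genes fell in knockdown cells without a call in control cells. The 31 and 32 genes had medians of 0.55 and 0.13, and all probes -0.07 and -0.02. In knockdown cells, 8 higher and 3 lower were called when uncorrected signals were scaled by the 75th percentile.

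At the neuronal stage 6 genes were called lower and 6 higher in knockdown than in control cells, of 32 tested, beside 13.5% and 13.9% of all 20893 probes tested. The 32 had a median change of 0.15 on the log2 scale, and all probes one of 0.01. In none of the 12 did any knockdown array fall within the range of the control arrays. The 12 were called by this same difference, so the lack of overlap adds little. Without background correction, 4 lower and 3 higher were called after quantile normalization, and 5 lower and 3 higher when arrays were scaled by their 75th percentile. Itgav, Lama3, Tnc and Lamc3 lost the call under both, and Itga8 after quantile normalization alone.

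The genes lower in knockdown cells were Itga7, Itga8, Itgb6, Lama2, Lamc3 and Nid2. Lama2 had 6.93, 6.93 and 6.91 on the control and 5.01, 4.84 and 4.97 on the knockdown arrays, 3.96-fold lower (-1.99 ± 0.13, adjusted p = 1.25e-09). Its receptor subunit Itga7 had 7.37, 7.20 and 7.21 against 5.55, 5.92 and 5.55, 3.01-fold lower (-1.59 ± 0.16, adjusted p = 2.53e-07), after having been higher in knockdown cells at the SNM stage. Itgb6 was detected on all control arrays and on no knockdown array, where it read 4.67, 4.44 and 4.59, and was at least 3.75-fold lower (adjusted p = 4.81e-11). A second Itgb6 probe was called lower too (-1.47). Nid2 had 9.31, 9.20 and 9.12 against 7.54, 7.47 and 7.38 (-1.75 ± 0.07, adjusted p = 3.78e-12), while its paralog Nid1 was not called, with means of 9.82 and 9.52. Itga8, the nephronectin receptor subunit of mesenchyme, had 6.94, 6.85 and 7.03 against 6.25, 5.70 and 6.15 (-0.90 ± 0.20). The gamma3 chain Lamc3 had 5.36, 5.01 and 5.04 and was detected on no knockdown array, at least 1.31-fold lower; its call was lost without control array 1 (-0.50) or knockdown array 2 (-0.55).

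The genes higher in knockdown cells were Tnr, Itga1, Lama1, Lama3, Itgav and Tnc. Tnr was detected on the 3 knockdown neuronal arrays and on none of the other 15. It had 4.26, 4.38 and 4.28 on the control neuronal and 6.70, 6.73 and 7.16 on the knockdown neuronal arrays, at least 4.46-fold higher (adjusted p = 2.56e-12). Itga1, which binds collagen IV and laminin, had 5.78, 5.96 and 6.07 against 7.41, 7.31 and 7.41, 2.71-fold higher (1.44 ± 0.09, adjusted p = 5.91e-10). It was the gene called higher at both the SNM and the neuronal stage. Agrin, called higher at the SNM stage, fell just short of 1.5-fold at the neuronal stage (0.58 ± 0.09, 1.49-fold, adjusted p = 4.26e-05). Its knockdown effect was not called different between these stages (-0.23, adjusted p = 0.153). Lama1 had 8.58, 8.57 and 8.52 against 9.73, 9.75 and 9.60 (1.14 ± 0.10, adjusted p = 5.75e-08). Its partner chains Lamb1-1 and Lamc1 were not called, with means of 8.19 against 8.50 and of 10.23 against 10.53. Lama3 had 4.35, 4.43 and 4.68 against 5.63, 5.53 and 5.48 (1.06 ± 0.11) and was detected on 1 of the 3 control arrays. Itgav, the alpha subunit of the vitronectin receptors, had 5.70, 5.81 and 5.63 against 6.41, 6.69 and 6.73 (0.90 ± 0.22). Its call was lost with the mean of all its probes (0.24). A second Itgav probe, detected on 10 arrays and not tested at this stage, had a change of 0.02.

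Tnc lay between 8.98 and 9.11 on the control arrays and had 9.65, 9.78 and 9.45 on the knockdown arrays (0.59 ± 0.14, adjusted p = 0.00207), close to the minimum of 1.5-fold; leaving out control array 2 or 3 or knockdown array 1 or 2 took it below that, at 0.52 to 0.58. Its second probe changed by 0.57 and the third by -0.10. At the SNM stage Tnc was already 1.48-fold higher in knockdown cells (0.56 ± 0.14, adjusted p = 0.00375), just short of a call. There its second probe was called higher (0.59, adjusted p = 0.00384), while its other probes tested were not called (0.36 and 0.19). The knockdown effect on Tnc was not called different between the SNM and neuronal stages (0.03, adjusted p = 0.912). Dag1 had the most variable arrays, 9.67, 10.80 and 10.54 against 10.11, 10.41 and 10.97, and was called in no comparison. Over the 3 stages, 22 of the 45 genes were called in at least 1 comparison of knockdown and control cells, 3 of them at 2 stages (Itga1, Itga7 and Tnc) and 0 at all 3. The share of all probes called at 1 or more stages was not counted. By stage, 0.516%, 10.97% and 13.9% of all probes tested were called higher and 1.17%, 8.90% and 13.5% lower. Tnc and Itga7 were called in opposite directions at their 2 stages.

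**Figure D4:**
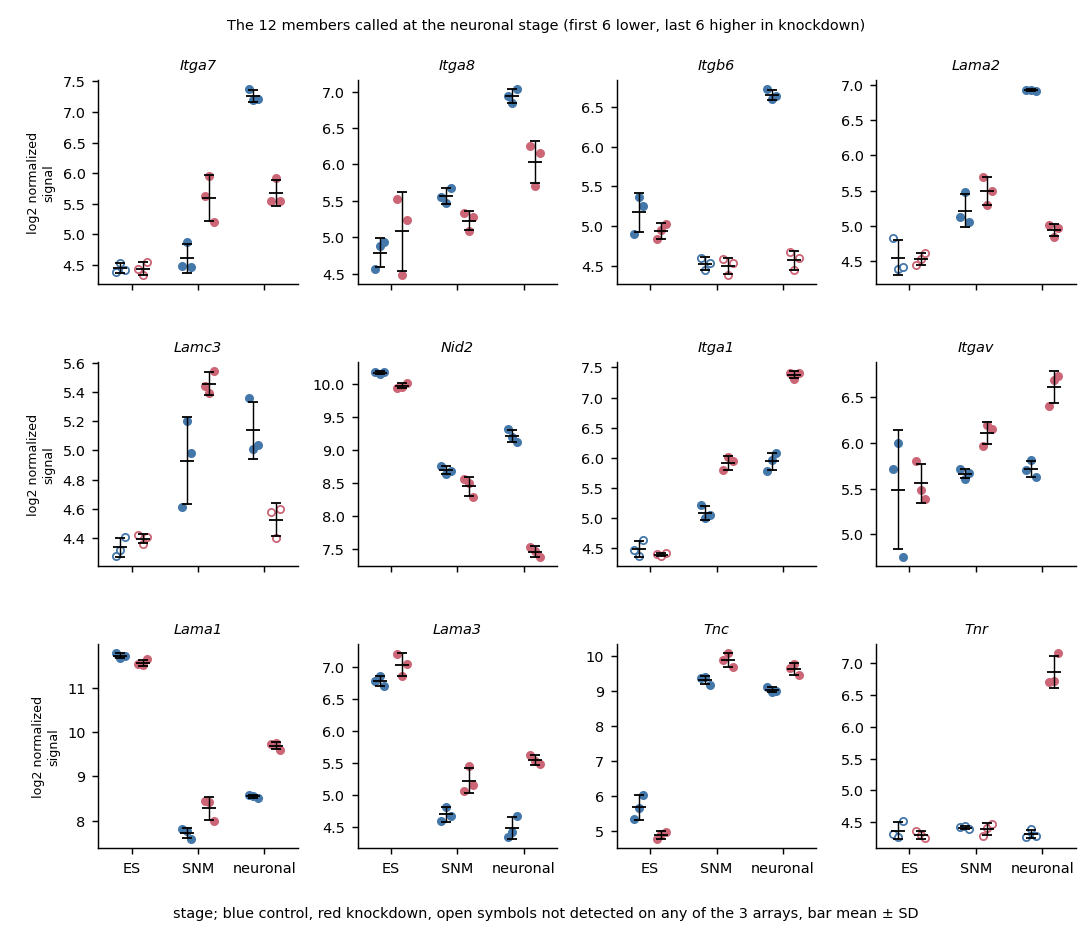
Log2 normalized signal (vertical axis) on each array by stage (horizontal axis) of the 12 genes called at the neuronal stage, in control (blue) and knockdown cells (red); bars are means ± SD over 3 arrays, open symbols mark conditions with no array detected, and vertical axes differ between panels. Itga7, Itga8, Itgb6 and Lama2 peaked in control neuronal cells, while Tnr was detected in knockdown neuronal cells alone.

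Marker genes of muscle and of oligodendrocytes moved far more in this comparison. The 11 skeletal muscle markers summed to 71319 to 72224 on the control neuronal arrays and 351 to 470 on the knockdown neuronal arrays. Of these markers 10 were called lower, from Myog at -4.36 to Tnnc2 at -8.56 on the log2 scale, and 0 higher (0 also at an unadjusted p-value under 0.05 in limma and by the t-test). The 10 oligodendrocyte markers summed to 3128 to 3312 and 48682 to 54140, and all 10 were called higher, from Olig2 at 2.08 to Mag at 6.57. Markers of fibroblasts and mesenchyme summed to 23718 to 27295 and 13053 to 16400, with 6 of 9 called lower. Endothelial markers summed to 3657 to 3831 and 1128 to 1167 with 2 of 3 tested called lower, and neuron markers to 10923 to 11775 and 5407 to 6101 with 5 of 7 called lower. Astrocyte and radial glia markers summed to 7132 to 7869 and 10924 to 12257 with 5 of 7 called higher, and pluripotency markers to 3511 to 3739 and 889 to 974 with all 6 tested called lower. Other lists moved less. Epithelial markers summed to 731 to 744 and 674 to 752, with 1 of 6 tested called lower. Schwann cell and neural crest markers summed to 2257 to 2335 and 1950 to 2130, with 0 of 3 called (1 higher and 1 lower at an unadjusted p-value under 0.05 in limma). Extraembryonic endoderm markers summed to 2224 to 2319 and 2107 to 2342, with 3 of 6 called higher and 1 lower. The part of these cells in the changes of Lama2, Itga7, Itgb6, Nid2, Tnr and the other 7 genes was not tested.

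**Figure D5:**
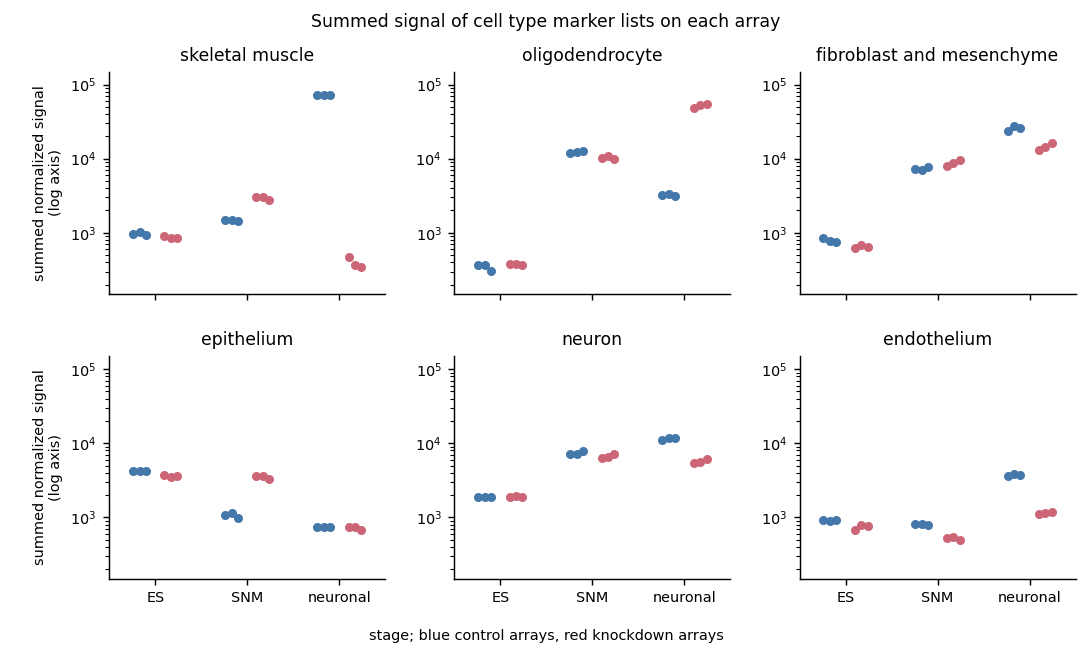
Summed normalized signal (vertical axis, log scale) of the markers of 6 cell types on each array, by stage, in control (blue) and knockdown cells (red). The skeletal muscle sum was between 71319 and 72224 on the control neuronal arrays and between 351 and 470 on the knockdown neuronal arrays, and the oligodendrocyte sum was highest on the knockdown neuronal arrays.

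The difference between knockdown and control cells itself changed with the stage. Between the ES and SNM stages, 16 of 35 genes tested had a more positive knockdown effect at the SNM stage and 0 a more negative one (11.7% and 9.61% of all probes tested). At an unadjusted p-value under 0.05 in limma these were 19 and 2 genes, and the share of all probes at that p-value is not given here. The median difference was 0.46 on the log2 scale, against -0.05 over all probes. The difference was largest for Lamb2 (1.64 ± 0.20), Itga3 (1.55 ± 0.16), Tnc (1.34 ± 0.20) and Itgb5 (1.27 ± 0.08). Between the SNM and neuronal stages, 12 of 34 were more negative and 2 more positive (14.8% and 13.7%), with a median of -0.39 against 0.06. The 2 were Tnr (2.58 ± 0.14) and Itga1 (0.60 ± 0.12). The most negative were Itga7 (-2.58 ± 0.22), Lama2 (-2.26 ± 0.18), Itgb6 (-2.06 ± 0.15), Nid2 (-1.51 ± 0.10), Fn1 (-1.39 ± 0.14) and Itgb5 (-1.28 ± 0.08). The 2 sets of differences share the SNM arrays.

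Other genes of the same pathways were followed as fixed lists. Of the dystrophin-glycoprotein complex, which links laminin to the cytoskeleton in muscle, 0 of 13 tested were called at the ES stage (3 at an unadjusted p-value under 0.05 in limma, 0 by the t-test), 4 of 14 were called higher in knockdown cells at the SNM stage (10.97% of all probes tested), and 6 of 17 lower at the neuronal stage (13.5%). The dystrophin-related Drp2 had means of 5.91 in control and 7.38 in knockdown SNM cells (1.47 ± 0.07). The sarcoglycan Sgca, confined largely to striated muscle, was at least 5.34-fold lower at the neuronal stage, and dystrobrevin Dtna had a log2 change of -1.89 ± 0.06.

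Of the focal adhesion adaptors, which join integrins to actin, 2 of 21 were called lower at the ES stage (1.17% of all probes tested), namely Cav1 (-0.93 ± 0.06) and Tgfb1i1 (-0.86 ± 0.08). The t-test with Benjamini-Hochberg adjustment called 1 lower there. At the SNM stage 1 of 22 was higher, Cav1 (1.20 ± 0.06), and 2 were lower, Lims2 (-1.94 ± 0.10) and the focal adhesion kinase Ptk2 (-0.83 ± 0.08), beside 10.97% and 8.90% of all probes. At the neuronal stage 5 of 23 were higher and 2 lower (13.9% and 13.5%). Lims2, a partner of integrin-linked kinase, was higher by 5.05 ± 0.10 on the log2 scale, with means of 6.56 and 11.62, and Cav1 by 2.24 ± 0.06. Itgb1bp2, also called melusin and known from striated muscle, was at least 10.7-fold lower, and vinculin (Vcl) changed by -0.77 ± 0.06.

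Of other basement membrane proteins and integrin ligands, 1 of 11 was lower at the ES stage (Fbln2, -0.95 ± 0.26), beside 1.17% of all probes tested. The t-test with Benjamini-Hochberg adjustment called 0 there. In this list 5 of 16 were higher and 1 lower at the SNM stage (all probes: 10.97% and 8.90%), and 5 of 18 higher and 5 lower at the neuronal stage (13.9% and 13.5%). Vitronectin (Vtn), a ligand of the receptor that contains Itgb5, had means of 6.56 in control and 9.92 in knockdown cells at the SNM stage (3.36 ± 0.12) and of 6.40 and 9.02 at the neuronal stage (2.62 ± 0.12). Sparc rose by 1.16 ± 0.06 at the SNM stage and Smoc1 by 0.95 ± 0.07 at the neuronal stage. Col15a1 was lower at both (-0.62 ± 0.12 and -1.19 ± 0.12), and Thbs2 at the neuronal stage (-0.84 ± 0.12).

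Of the lecticans and other genes of the perineuronal matrix, partners of Tnr and Tnc, 1 of 4 was called higher at the ES stage (Vcan, 0.59 ± 0.14). This was beside 0.516% of all probes tested, and the t-test with Benjamini-Hochberg adjustment called 0. At the SNM stage 4 of 9 were called higher and 1 lower (10.97% and 8.90%). At the neuronal stage 8 of 9 were called higher and 0 lower (13.9% and 13.5% of all probes). There 0 were lower also at an unadjusted p-value under 0.05 in limma and by the t-test. Aggrecan (Acan) and the link protein Hapln1 were higher by 2.77 ± 0.10 and 1.94 ± 0.08 at the SNM stage, where Hapln4 was lower (-0.84 ± 0.10). Contactin-1 (Cntn1), a neural cell surface receptor for Tnr, was higher by 2.73 ± 0.11 at the neuronal stage, with means of 8.79 and 11.52, and brevican (Bcan) by 2.71 ± 0.11. Astrocyte and radial glia markers, given above, were higher at both stages, and oligodendrocyte markers lower at the SNM and higher at the neuronal stage. The part of these cells in the rise was not tested.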

How the data were processed

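RNA of control and knockdown cells was measured on 18 arrays. The deposited values are the average bead signal intensity of each probe, as Illumina's software gives it, without normalization, and a detection p-value, which the authors deposited beside it. A further table gave the annotation; its 72 columns of per-sample values carry chip positions that the labels do not pair with samples and were not used.

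The neqc function of limma 3.58.1 (R 4.3.3) turned intensities into log2 signals (background from the detection p-values, offset 16, quantile normalization). 1 limma model over the 6 conditions (lmFit, contrasts.fit, eBayes) gave 9 comparisons, all two-sided. A probe was tested where its detection p-value was under 0.05 on all 3 arrays of a condition compared, and called if it changed at least 1.5-fold with a p-value under 0.05 after Benjamini-Hochberg adjustment over all probes tested. Where a probe was detected on no array of 1 condition, the fold is a bound ("at least"): the mean of the bright condition against the mean, over the dim arrays, of the lowest detected signal or the probe's own if higher. Values with ± are estimates with the standard error of the fit. The number of arrays limits the precision. The procedure was tested on simulated data.

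The 45 genes are described by role, with values per array for those called. For the other pathway genes, those named have the 2 largest rises and falls among called genes. In each of these sets 1 gene is counted but not reported here by name. The genes and lists were chosen with earlier results of these data known. Summed marker signals are sums of unlogged normalized signals over a list. RefSeq's table of build GRCm38.p6 gave the promoters and current names (45 of 45 genes were found); the build used for the array annotation is not given in the sources used here, and no probe sequences were used.

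Arrays with equal numbers in their titles varied together at the SNM stage (correlations of deviations of knockdown and control arrays: 0.486, 0.108 and 0.489). They also did so for knockdown cells between the SNM and neuronal stages (0.522, 0.139 and 0.511). In both, every pair exceeded 0.1. This cutoff is arbitrary: knockdown and control arrays at the neuronal stage had 0.605, 0.0938 and 0.325. As each condition was 1 RNA pool, equal numbers cannot mark paired cultures.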

Additional observations from a re-analysis of the deposited data

Results flagged for a closer look

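The effect of the knockdown differed between stages for the following genes, by the test of the difference itself in limma (log2 scale). From the ES to the SNM stage it became more positive for Lamb2 (1.64), Itga3 (1.55), Tnc (1.34), Itgb5 (1.27), Itga7 (1.00), Nid1 (0.94), Itga1 (0.93), Lamb1-1 (0.89), Lama5 (0.84), Itga2b (0.72), Lama1 (0.72), Fn1 (0.69), Hspg2 (0.66), Itga10 (0.64) and Agrn (0.63). From the SNM to the neuronal stage it became more negative for Itga7 (-2.58), Lama2 (-2.26), Itgb6 (-2.06), Nid2 (-1.51), Fn1 (-1.39), Itgb5 (-1.28), Lamc3 (-1.13), Hspg2 (-1.08), Itga3 (-0.92), Lamb2 (-0.86), Nid1 (-0.79) and Itga11 (-0.77), and more positive for Tnr (2.58) and Itga1 (0.60). The conditions hold 1 RNA pool each, so these differences are between pools.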

How the results depend on the processing

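Counts of called genes are given as higher and lower. Signals without background correction keep the background in both conditions, which shrinks fold changes. Quantile normalization of such signals gave 0 and 0 for knockdown against control ES cells, 6 and 0 for SNM cells and 3 and 4 for neuronal-stage cells; 3 and 14 (control) and 8 and 9 (knockdown) from the ES to the SNM stage, and 11 and 0 and 7 and 3 from there to the neuronal stage. Scaling by the 75th percentile gave 0 and 0, 6 and 0, 3 and 5, 2 and 14, 6 and 10, 11 and 0, and 8 and 3 in the same order. The differences of the knockdown effect came to 10 and 0 and 2 and 10 under the former and 7 and 0 and 3 and 9 under the latter. Itga1, called higher from the ES to the SNM stage in control cells (0.60), had -0.01 under the latter. With a minimum of 2-fold, the counts were 0 and 0, 4 and 0, 4 and 4, 3 and 13, 9 and 9, 7 and 0, 5 and 2, 5 and 0, and 1 and 8.

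The mean of all probes of a gene gave 0 and 0 in ES cells, 7 and 0 in SNM cells and 4 and 5 in neuronal-stage cells. It gave 5 and 14 (control) and 9 and 9 (knockdown) from the ES to the SNM stage, and 11 and 0 and 11 and 3 from there to the neuronal stage. The differences of the knockdown effect came to 10 and 0 and 2 and 9. In SNM cells Fn1, Hspg2, Itga1 and Itgb1 lost the call, and in neuronal-stage cells Itgav, Tnc and Lamc3. Fitting only the conditions compared gave 1 lower in ES and 0 in SNM cells. Without a detection filter, 0 were lower at the SNM stage and 0 in control cells after it. The t-test of the methods gave 0 lower in these same 2 comparisons, adjusted or not, and 0 at the ES stage after Benjamini-Hochberg adjustment. Over the 9 comparisons 136 changes were called; 118 kept their call whichever array was left out, and 73 under all alternatives other than the 2-fold minimum. Those lost without 1 array that bear on a statement are named in the report.

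Leaving out 1 array gave 0 to 1 higher and 1 to 4 lower in ES cells, 10 to 13 and 0 to 1 in SNM cells, and 5 to 8 and 6 to 8 in neuronal-stage cells. It gave 7 to 8 and 15 to 16 (control) and 13 to 14 and 11 to 13 (knockdown) from the ES to the SNM stage, and 14 to 16 and 0 to 2, and 9 to 12 and 6 to 7, from there to the neuronal stage. For the differences of the knockdown effect it gave 13 to 17 and 0 to 1, and 2 to 6 and 12 to 14.

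With the array number as a block (replicate block), all 136 calls remained and 4 were gained: 1 gene was more negative for the SNM minus ES effect in place of 0, 3 more positive for the neuronal minus SNM effect in place of 2, 14 in place of 13 rose in knockdown cells up to the SNM stage and 15 in place of 14 in control cells after it. Where every pair of arrays of equal number had a correlation above 0.1, the block changed no call. In the other comparisons of 2 conditions, some pair of equal number stayed below 0.1 (correlations from -0.117 to 0.605). Probes near background limit what can be seen of the 9 genes detected throughout no condition.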
